A study of Mus musculus with 6 samples.

Results

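Cytosolic ribosomal proteins are the protein part of the ribosome that translates nuclear-encoded mRNA. The genes described here were chosen by symbol, as 54 of the 31017 gene symbols in the count table. Of these, 23 encode proteins of the small subunit and 31 encode proteins of the large subunit. All 54 passed the low-count filter that left 12076 genes for testing. Another 27 core ribosomal protein genes and a few paralogs formed separate lists.

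The 6 libraries came from 4T1, a mouse mammary carcinoma cell line from a BALB/c tumour that is widely used as a model of metastatic breast cancer. Cells were nucleofected with Cas9, the nuclease that cuts DNA where a guide RNA directs it. The control group (3 libraries) received control guide RNAs, and the ETV4 KO group (3 libraries) is labelled as a knockout of ETV4, a transcription factor of the ETS family. Both groups were grown as droplets of collagen I gel (3D culture) and were released from the gel with collagenase before polyA RNA was extracted. The library names of the knockout carry the code c39, and nothing in the labels says whether it stands for 1 clone or a pool. The labels give 2 collagen concentrations without saying which was used. Nothing says that replicates were separate cultures, and the p-values then rest on the spread among these libraries alone, which may be technical.

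Each ribosome holds a single copy of nearly every ribosomal protein, and the cell makes these proteins in matched amounts for assembly with ribosomal RNA in the nucleolus. Their mRNAs are short, abundant and stable. Many begin with a run of pyrimidines at the first base, the 5′ terminal oligopyrimidine (TOP) motif, through which mTORC1 and the RNA-binding protein LARP1 control their translation. Their promoters often hold sites for ETS-family factors, which recognise a GGAA core. Cancer cells depend on a high output of ribosomes, and some ribosomal proteins have further roles when they are free of the ribosome.

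The sequences around the annotated starts were searched for the pyrimidine runs with which many of these mRNAs begin. Promoter sequences from RefSeq (build GRCm38.p6) were at hand for 45 of the 54 genes. The lines that follow give 30 bases each, 5′ to 3′ on the gene's strand, from 10 bases before the annotated start to 20 bases from it onward. Capitals mark a run that begins with C, is followed by at least 4 further pyrimidines (C or T), and begins within 5 bases of the annotated start. The genes are ones on which the expression results turn, first 7 with such a run and then 3 without one.
Rpl38, chr11:114668570-114668599, plus strand: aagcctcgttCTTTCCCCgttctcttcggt
Rps6, chr4:86857348-86857377, minus strand: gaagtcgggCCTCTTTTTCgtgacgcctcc
Rps27, chr3:90213629-90213658, minus strand: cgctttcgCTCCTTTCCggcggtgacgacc
Rps10, chr17:27635225-27635254, minus strand: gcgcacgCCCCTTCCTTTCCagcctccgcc
Rps18, chr17:33955646-33955675, minus strand: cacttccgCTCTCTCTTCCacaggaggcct
Rps21, chr2:180257369-180257398, plus strand: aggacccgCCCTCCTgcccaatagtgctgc
Rps2, chr17:24720053-24720082, plus strand: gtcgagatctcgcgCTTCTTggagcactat
Rpl27, chr11:101442235-101442264, plus strand: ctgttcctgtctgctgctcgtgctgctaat
Rpsa, chr9:120127756-120127785, plus strand: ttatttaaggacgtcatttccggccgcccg
Rplp0, chr5:115559457-115559486, plus strand: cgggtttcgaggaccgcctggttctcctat

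Such a run was present in 20 of the 45 genes (44.44%), in 10 of 21 small subunit genes and 10 of 24 large subunit genes. Among all 27025 genes with a promoter entry, expressed or not, the share was 21.16%. The annotated RefSeq start can differ from the start used in 4T1 cells, and an absent run says only that these letters are not at the annotated start.

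The second motif searched was CCGGAAG, a sequence of the kind ETS-family factors bind, on either strand (CTTCCGG on the other strand) between 250 bases before and 50 bases after the start. It is shown because ETV4 belongs to that family. Capitals mark the match in windows of 30 bases.
Rpl38, chr11:114668549-114668578, plus strand: gggttaaccgtCCGGAAGcggaagcctcgt
Rpl19, chr11:98026660-98026689, plus strand: acttagcgtgaCTTCCGGctacccagagga
Rpl26, chr11:68901559-68901588, plus strand: aacttacagaaCCGGAAGtcgcgtgtagtt
Rps6, chr4:86857440-86857469, minus strand: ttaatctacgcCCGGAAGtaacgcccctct
Rps2, chr17:24719925-24719954, plus strand: atttatacgtcCTTCCGGctggtgtagggc
Rpsa, chr9:120127567-120127596, plus strand: cgccccagctaCTTCCGGcctggggtctgt
Rps18, chr17:33955722-33955751, minus strand: agaagcaatttCCGGAAGtggacctccggg

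The match begins at base -20 relative to the start in Rpl38, -39 in Rpl19, 4 in Rpl26, -91 in Rps6, -127 in Rps2, -188 in Rpsa and -75 in Rps18. It was found in 19 of the 45 genes (42.22%), in 9 of 21 small subunit genes and 10 of 24 large subunit genes. Of all genes with a promoter entry, expressed or not, 9.93% had it. A match is a description of the sequence, not a site shown to be bound.

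The libraries held 22355015 to 29042569 counts and 15515 to 15800 detected genes. Etv4, the targeted gene, had 3098, 3648 and 3030 counts in the control libraries and 2503, 2217 and 2207 in the ETV4 KO libraries, or 134 CPM ± 0.752 and 89.8 CPM ± 2.44 (SD, n = 3). These CPM values, like all of those given for single members, are scaled by edgeR's TMM factors. Its log2 fold change was -0.58 (SE 0.036). Its mRNA was lower but present in each ETV4 KO library. Etv4 lies on chromosome 11, where the 101 expressed neighbours in its 10 Mb bin had a median log2 fold change of -0.46, so its own differed from theirs by -0.11. The place of the cut is not given in the labels, so the mRNA level does not check the loss of the protein. Marker CPM was scaled by library size alone. Summed over 6 epithelial carcinoma markers it was 5702 to 5840 in controls and 4238 to 4426 in ETV4 KO. The 6 did not move alike, with 4 called lower, 1 higher and 1 neither (36% of all tested genes were lower and 35% higher). Cldn4 had 230 to 236 CPM in controls against 301 to 326 CPM in ETV4 KO, while Epcam had 450 to 475 against 171 to 175. The part of these differences in the results was not tested. Markers of other cells stayed low: 6 fibroblast genes summed to 10.1 to 11.9 CPM in controls and 12.7 to 14.3 CPM in ETV4 KO, with Lum at 0. Nearly all of that sum was Pdgfra, the 1 fibroblast gene tested, which was called higher (log2 fold change 0.32). The 6 macrophage genes summed to 17.3 to 18.7 and 18.1 to 19.7 CPM, mostly from Cd68 and Cd14, with Adgre1 and Lyz2 at 0. T cell genes (5) summed to at most 0.034 CPM and endothelial genes (4) to at most 0.62 CPM. Log2 CPM of libraries correlated at 0.9978 to 0.9981 within groups and at 0.9688 to 0.9699 between groups.

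Ribosomal protein mRNAs took a smaller share of the library in ETV4 KO. The 54 genes held 4.22, 4.47 and 4.38% of counts in the control libraries and 3.80, 4.01 and 3.88% in the ETV4 KO libraries, so the groups did not overlap. The means were 4.36% ± 0.125 and 3.90% ± 0.108 (SD, n = 3), and the exact 2-sided permutation test gave p = 0.1, the smallest that 3 against 3 libraries allow. Mitochondrially encoded transcripts moved the other way, from 1.88% ± 0.081 to 2.41% ± 0.123 of counts. With them left out of the denominator the ribosomal protein share was 4.44% in controls and 3.99% in ETV4 KO. In bulk RNA, fewer cells of a type and less RNA per cell cannot be told apart.

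Small subunit genes held 1.75% ± 0.052 of counts in controls and 1.61% ± 0.048 in ETV4 KO (exact permutation p = 0.1). For the large subunit the shares were 2.61% ± 0.073 and 2.29% ± 0.061 (exact permutation p = 0.1). The ratio of large to small subunit counts fell by more than its spread between libraries, from 1.493 ± 0.0033 to 1.426 ± 0.0068 (SD, n = 3, exact permutation p = 0.1). The 5 large subunit genes on chromosome 11 held 0.353% of counts in controls and 0.230% in ETV4 KO. Without them the ratio was 1.291 ± 0.0023 in controls and 1.283 ± 0.0086 in ETV4 KO (exact permutation p = 0.3, where 0.1 is the smallest possible), and 2 of the 3 ETV4 KO libraries were below every control. These 5 genes were set aside after their falls were known. No small subunit gene of the 23 lies on chromosome 11.

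**Figure D1:**
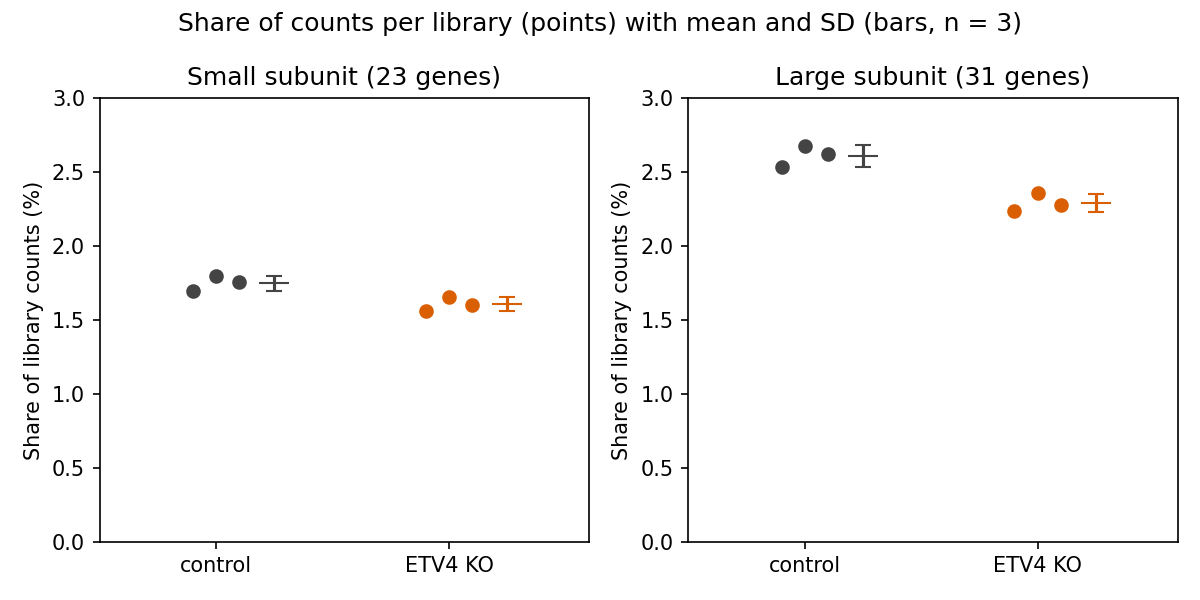
Share of library counts (%, y axis) in small subunit genes (left) and large subunit genes (right) for each control and ETV4 KO library (points), with the group mean and SD (bars, n = 3). All 3 ETV4 KO libraries sit below all 3 controls in both panels, with means of 1.61 against 1.75% for the small subunit and 2.29 against 2.61% for the large.

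Gene by gene, falls outnumbered rises in both subunits. At an adjusted p under 0.05 (edgeR quasi-likelihood test, Benjamini-Hochberg over all 12076 genes), 33 of the 54 genes fell, 8 rose and 13 did not pass. The contrast is broad: 36% of all tested genes were called lower and 35% higher, and 71.1% were called in either direction. Against that background 61.1% of the ribosomal protein genes were lower and 14.8% higher. The median log2 fold change was -0.13 over the 54 genes and -0.0038 over all tested genes. Among 2317 genes at least as abundant as the lowest of the 54, the median was 0.054, with 46.6% higher and 33.4% lower.

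Changes were small beside their number. The log2 fold changes ran from -0.80 (Rpl38) to 0.70 (Rps2), with standard errors of 0.030 to 0.052. Against a fold change of at least 1.2 (edgeR glmTreat), 15 genes were called lower and 2 higher, where 19.6 and 17.4% of all genes passed. The CPM ranges of the groups did not overlap for 38 of the 54 genes, where 72.7% of all tested genes did not overlap. Of the 38, 30 were lower in ETV4 KO (36.6% of all genes were) and 8 higher (36.1% of all genes). Of the 33 falls, those of Rps14, Rpl10a and Rpl35 came with overlapping groups. Values also moved together within groups. Control replicate 1 was the lowest control for 52 of the 54 genes and control replicate 2 the highest for 43. In the ETV4 KO group, replicate 1 was the lowest for 38 and replicate 2 the highest for 41, so replicate 1 was low and replicate 2 high in both groups for most of these genes.

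In the small subunit, 15 of 23 genes fell, 5 rose and 3 did not pass, with a median log2 fold change of -0.14. In the large subunit, 18 of 31 fell, 3 rose and 10 did not pass, with a median of -0.11 (without control replicate 2, 5 rose). The groups did not overlap for 19 of the 23 small subunit genes, 14 lower and 5 higher. In the large subunit they did not overlap for 19 of 31, 16 lower and 3 higher. Of all tested genes 72.7% did not overlap, 36.6% lower and 36.1% higher. With the chromosome 11 genes set aside, 13 of 26 large subunit genes fell, 3 rose, and the median was -0.077.

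**Figure D2:**
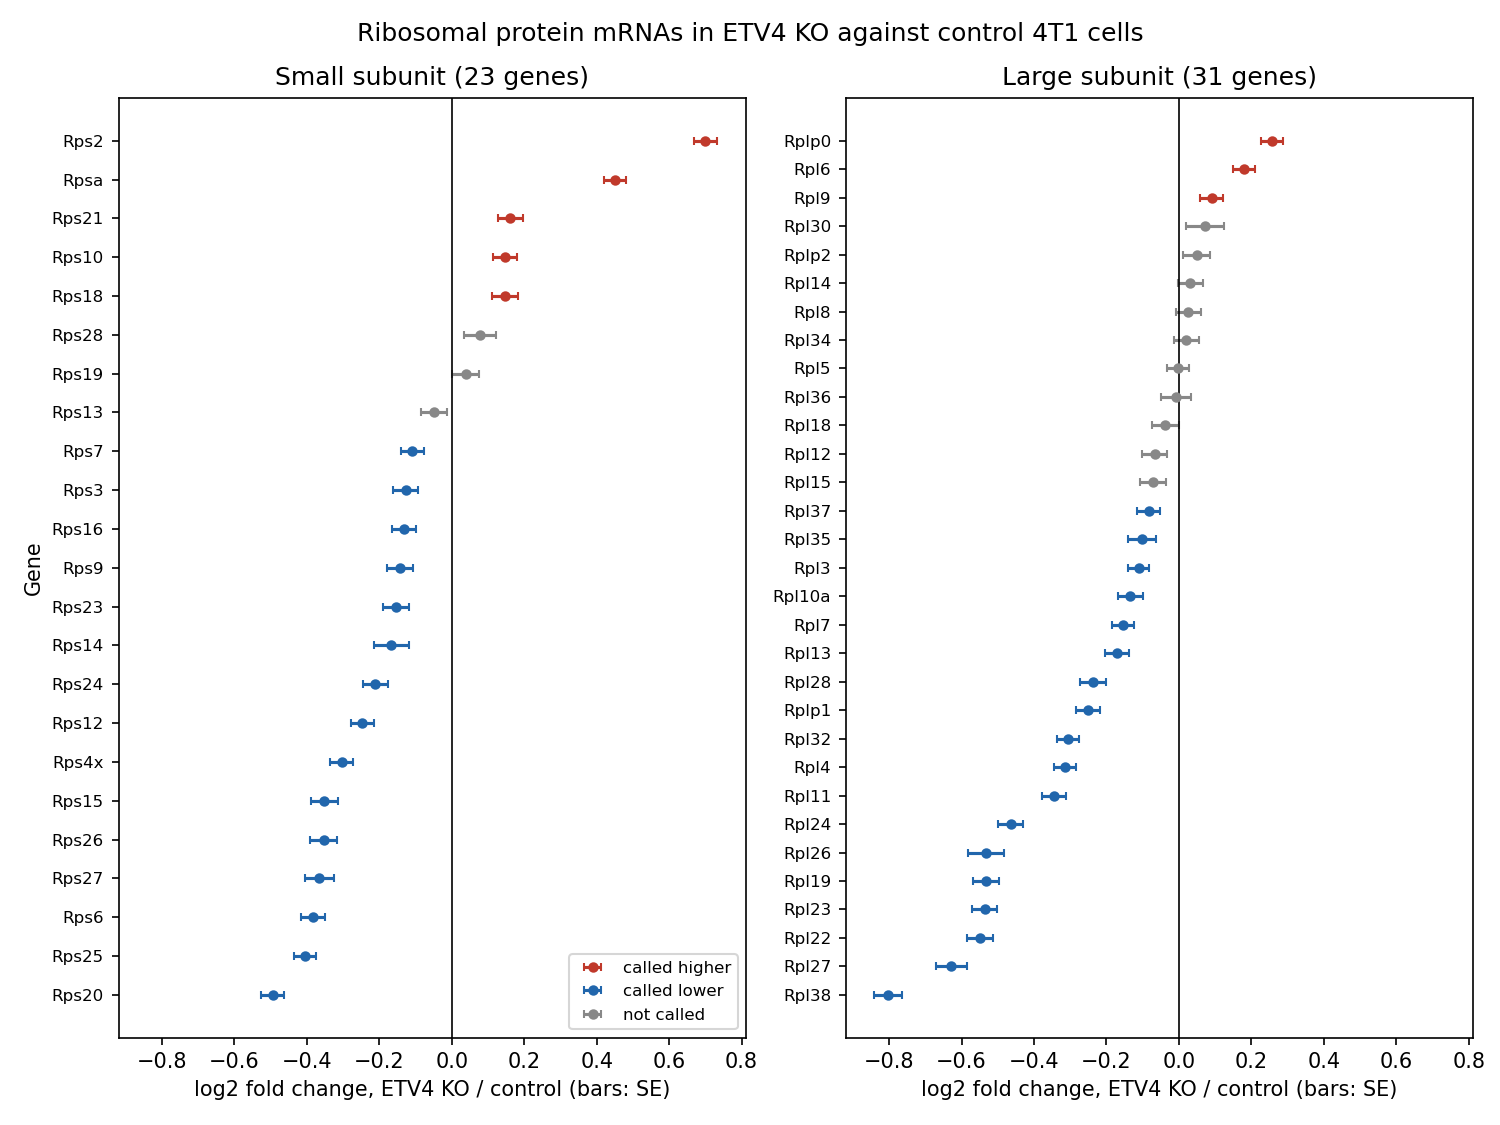
Log2 fold change of ETV4 KO over control (x axis, bars show the SE) for each small subunit gene (left) and large subunit gene (right), coloured by whether it was called higher, lower or neither at an adjusted p under 0.05. Falls lead in both panels, 15 of 23 and 18 of 31 genes, and Rps2 (0.70) and Rpl38 (-0.80) mark the 2 ends.

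The 5 rises of the small subunit began with Rps2, a protein near the mRNA entry channel that bears on the accuracy of decoding. Rps2 stood at 526, 537 and 535 CPM in the control libraries and 823, 899.7 and 874 CPM in the ETV4 KO libraries. Each ETV4 KO library was far above each control (log2 fold change 0.70, SE 0.033, edgeR adjusted p = 1.15e-17), a rise of 62.5%. Rpsa, which is a small subunit protein and also the precursor of a laminin-binding receptor, stood at 1503, 1576 and 1538 CPM in controls against 2107, 2092 and 2110.1 CPM in ETV4 KO. Its 3 ETV4 KO values lay close together and well above the controls (log2 fold change 0.45, SE 0.030, edgeR adjusted p = 3.58e-14). Both stayed higher against the fold of 1.2, and these were the 2 genes that did.

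The other small subunit rises were under 1.2-fold. Rps21, a small protein of the subunit, had 399.6, 419 and 403 CPM in controls against 438, 476 and 453 CPM in ETV4 KO (log2 fold change 0.16, SE 0.034, edgeR adjusted p = 9.35e-05). For Rps10, which sits where mRNA enters and is mutated in some patients with Diamond-Blackfan anaemia, an inherited failure of red cell production, the values were 556, 589.6 and 575 CPM in controls against 620.2, 662 and 624 CPM in ETV4 KO (log2 fold change 0.15, SE 0.033). Rps18, a protein of the subunit head, had 697, 766 and 735 CPM in controls against 794, 848 and 791 CPM in ETV4 KO (log2 fold change 0.15, SE 0.035). In all 3 the lowest ETV4 KO library was above the highest control. Rps10 and Rps18 lie on chromosome 17, and the median log2 fold changes of their expressed neighbours, 0.36 and 0.31, exceeded their own. With those medians as an offset both were called lower, at -0.22 and -0.16.

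Among the 15 falls of the small subunit, Rps20, a protein of the subunit head, moved most. It had 723, 759 and 764 CPM in the control libraries and 532, 529.7 and 533 CPM in the ETV4 KO libraries. The ETV4 KO libraries were nearly equal and all below the controls (log2 fold change -0.49, SE 0.031, edgeR adjusted p = 1.12e-14). Rps6, the classical substrate of the S6 kinases downstream of mTORC1, fell, with 806, 847 and 829 CPM in controls against 605, 649.7 and 648 CPM in ETV4 KO (log2 fold change -0.38, SE 0.033, edgeR adjusted p = 1.37e-11). For Rps27, a zinc-finger protein with a close paralog, the values were 449, 455 and 471 CPM in controls against 333, 391 and 343 CPM in ETV4 KO (log2 fold change -0.37, SE 0.041, edgeR adjusted p = 3.81e-09), and ETV4 KO replicate 2 was the highest of its group. Its value with the neighbours' median as an offset was -0.15. The other 12 falls ran from -0.41 (Rps25) to -0.11 (Rps7). The smaller fall of Rps14 (-0.17, adjusted p = 0.00271) did not pass when control replicate 2 (adjusted p = 0.0563) or ETV4 KO replicate 1 (adjusted p = 0.0536) was left out, nor with DESeq2 (adjusted p = 0.129).

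Rps19, the gene most often mutated in Diamond-Blackfan anaemia, did not pass, with 523, 552 and 544 CPM in controls against 529, 592 and 539.7 CPM in ETV4 KO (log2 fold change 0.038, SE 0.036, edgeR adjusted p = 0.35). Its groups overlapped. Rps13 (-0.050, adjusted p = 0.21) and Rps28 (0.079, adjusted p = 0.11) were the other small subunit genes without a call.

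The largest fall of the set, before positions were taken into account, was in the large subunit. Rpl38, known from a mouse mutant with skeletal patterning defects and altered translation of Hox mRNAs, had 236, 248 and 240.4 CPM in the control libraries and 131, 147 and 138 CPM in the ETV4 KO libraries. Every ETV4 KO value was under every control by a wide margin (log2 fold change -0.80, SE 0.038, edgeR adjusted p = 1.15e-17), a drop of 42.7%. Rpl27, a surface protein of the subunit, had 642, 657 and 686 CPM in controls against 383, 449.9 and 451 CPM in ETV4 KO (log2 fold change -0.63, SE 0.042, edgeR adjusted p = 6.28e-14), with ETV4 KO replicate 1 the lowest. Rpl22, an RNA-binding protein needed for T cell development and often mutated in cancers, had 393, 442 and 426 CPM in controls against 279, 294 and 289 CPM in ETV4 KO (log2 fold change -0.55, SE 0.037, edgeR adjusted p = 4.87e-14). All 3 genes stayed lower against the fold of 1.2.

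A further group of large subunit genes fell by like amounts. Rpl23, which can bind the p53 regulator MDM2, had 1347, 1491 and 1441 CPM in controls against 972, 1007 and 971 CPM in ETV4 KO (log2 fold change -0.54, SE 0.034). Rpl19, which reaches across to the small subunit in an inter-subunit bridge, had 1011, 1025 and 1017 CPM in controls against 659, 752 and 699.7 CPM in ETV4 KO (log2 fold change -0.53, SE 0.036). The groups were apart for both, and the controls of Rpl19 were the tightest of the set, with a coefficient of variation of 0.66%. Rpl26, a protein at the exit of the peptide tunnel, had 121, 128 and 123 CPM in controls against 83.5, 95.9 and 77.5 CPM in ETV4 KO (log2 fold change -0.53, SE 0.049). It was the least abundant of the 54 per kb of coding sequence. Rpl24, mutated in the Belly spot and tail mouse, fell, with 519.7, 534 and 548 CPM in controls against 364, 401 and 396 CPM in ETV4 KO (log2 fold change -0.46, SE 0.035). Rpl23, Rpl19 and Rpl26 lie on chromosome 11, as do Rpl38 and Rpl27.

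The P stalk of the large subunit, which recruits elongation factors, had members with different calls. Rplp0, its base, had 1727, 1841 and 1773 CPM in the control libraries and 2087, 2151 and 2144 CPM in the ETV4 KO libraries, and all ETV4 KO libraries were above all controls (log2 fold change 0.26, SE 0.031, edgeR adjusted p = 1.39e-08). Rplp1, one partner of the pair that binds Rplp0, went the other way, with 1488, 1574 and 1549.9 CPM in controls against 1261, 1341 and 1275 CPM in ETV4 KO and groups apart (log2 fold change -0.25, SE 0.032, edgeR adjusted p = 4.07e-08). The other partner, Rplp2, did not pass and its groups overlapped (log2 fold change 0.049, SE 0.037, edgeR adjusted p = 0.233). The rise of Rplp0 was the largest of the 3 rises in the large subunit, but its call was lost with the median of its expressed neighbours as an offset (0.059, adjusted p = 0.0949). Under that offset Rplp1 had -0.11.

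The remaining 2 rises were smaller. Rpl6 had 1119, 1146 and 1154 CPM in controls against 1255, 1316 and 1299.6 CPM in ETV4 KO (log2 fold change 0.18, SE 0.030, edgeR adjusted p = 5.45e-06), with groups apart. Rpl9 had 733, 795 and 760.5 CPM in controls against 803, 817 and 818 CPM in ETV4 KO (log2 fold change 0.091, SE 0.032, edgeR adjusted p = 0.0128), and its highest control lay just under its lowest ETV4 KO library. The call for Rpl9 was lost without control replicate 1 (adjusted p = 0.103), with upper-quartile factors (adjusted p = 0.142) and with library size only (adjusted p = 0.257). With the neighbours' median as an offset both genes were called lower, Rpl6 at -0.076, adjusted p = 0.0299, and Rpl9 at -0.10, adjusted p = 0.00628.

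Rpl5 and Rpl11 form a particle with 5S ribosomal RNA that, when free, binds MDM2 and relieves p53 of it. Rpl5 had 1066, 1118 and 1105 CPM in the control libraries and 1100.0, 1095 and 1087 CPM in the ETV4 KO libraries, the smallest difference of the 54 (log2 fold change -0.0030, SE 0.030, edgeR adjusted p = 0.933). Rpl11 had 791, 823 and 815 CPM in controls against 604, 662 and 646 CPM in ETV4 KO, with groups apart (log2 fold change -0.35, SE 0.033, edgeR adjusted p = 1.80e-10). Under the neighbours' offset Rpl5 was called lower as well, at -0.33, beside -0.22 for Rpl11. The difference between these partners was not tested. Of the genes on that axis, Trp53 (p53) had a log2 fold change of -0.48 (adjusted p = 1.67e-12) and Mdm2 -0.13 (adjusted p = 0.00617). Mdm4, the MDM2 relative, had 0.10 (adjusted p = 0.0249), and the p53 target Cdkn1a 0.10 (adjusted p = 0.0389). The calls for Mdm4 (adjusted p = 0.0665 to 0.154) and Cdkn1a (adjusted p = 0.0522 to 0.18) were lost, for Mdm4, without control replicate 2, control replicate 3, ETV4 KO replicate 1 or ETV4 KO replicate 3, and, for Cdkn1a, without any control replicate, ETV4 KO replicate 2 or ETV4 KO replicate 3. Under the neighbours' offset Trp53, on chromosome 11, had -0.12, adjusted p = 0.0074, Mdm2 lost its call (-0.071, adjusted p = 0.124) and Cdkn1a turned to -0.26. 4T1 cells are known to lack functional p53.

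Rpl36 (448, 494 and 488 CPM in controls against 447, 519.7 and 456 CPM in ETV4 KO) and Rpl34 (339, 373 and 358 CPM in controls against 370.2, 365 and 350.4 CPM in ETV4 KO) were the next closest to no difference, with log2 fold changes of -0.0079 (SE 0.042) and 0.020 (SE 0.035). Their groups overlapped. Under the neighbours' offset both were called lower, at -0.33 and -0.083. Rpl3, which lies beside the catalytic centre of the ribosome, had 753, 747 and 757 CPM in controls against 685, 692 and 712 CPM in ETV4 KO, a small fall with groups apart (log2 fold change -0.11, SE 0.030, edgeR adjusted p = 0.00159). The 13 genes without a call had absolute log2 fold changes of 0.003 to 0.079. The falls of Rpl35 (-0.10) and Rpl37 (-0.084) depended on single libraries. Rpl35 lost its call without control replicate 3 (adjusted p = 0.189) or ETV4 KO replicate 1 (adjusted p = 0.254). Rpl37 lost it without control replicate 2 (adjusted p = 0.122), control replicate 3 (adjusted p = 0.0759) or ETV4 KO replicate 3 (adjusted p = 0.107).

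**Figure D3:**
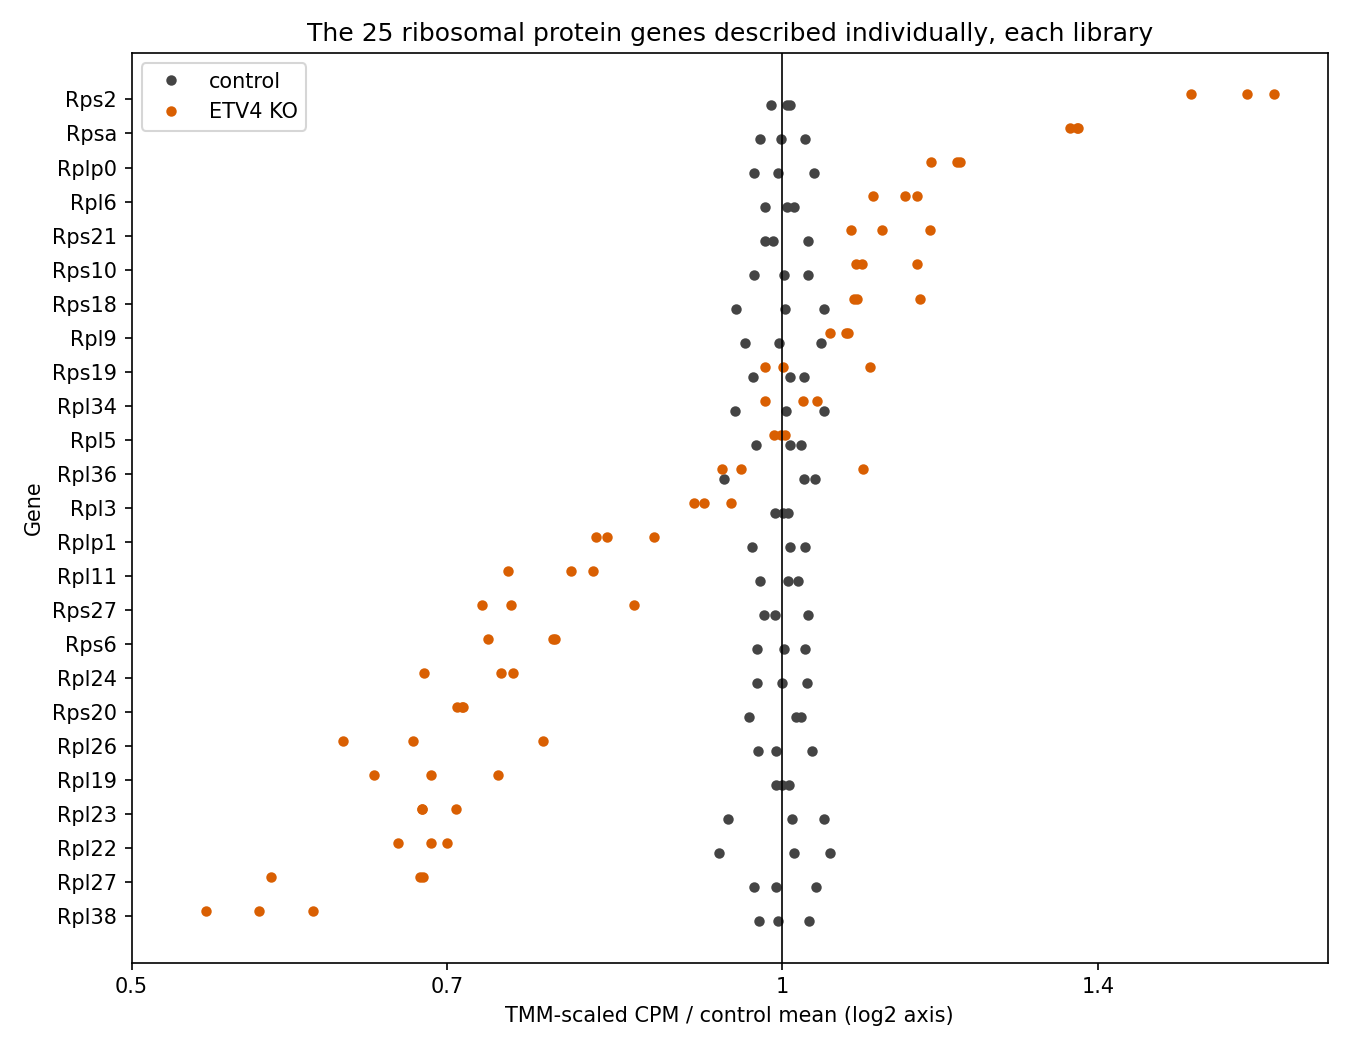
CPM of each library divided by the control mean of the gene (x axis, log2 scale) for the 25 genes given individually, with controls in grey and ETV4 KO in orange. Rps2, Rpsa and Rplp0 lie clear of the controls on the high side, Rpl38 and Rpl27 on the low side, and Rpl5, Rpl36, Rpl34 and Rps19 overlap with them.

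Levels differed more between genes than between groups. Per kb of coding sequence, control levels ran from 285 CPM (Rpl26) to 4496 CPM (Rplp1), with a median of 1429 CPM. Rpl23 was the next highest over all 6 libraries, with 3395 CPM per kb in controls and 2342 in ETV4 KO. Rpl3 was the next lowest, with 622 and 576 CPM per kb. These levels leave the untranslated ends out of the length, and their order depends on that choice. The Rpl23 transcript used here had 1059 bases, 420 of them coding. Across the 54 genes the log2 fold change correlated with the control log2 CPM at r = 0.15 (rho 0.0091). With coding length it correlated at r = 0.31 (rho 0.24) and with GC content of the transcript at r = 0.34 (rho 0.35). These are descriptions across genes that share the same 6 libraries. Among other expressed genes, the 528 with transcripts under 1 kb had a median of -0.034, and the 8290 with longer transcripts 0.023.

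Members were then set beside the expressed genes of their chromosome, which many followed in direction and others did not. The 54 genes lie on 19 chromosomes (GENCODE M21, mm10). All 5 genes on chromosome 11 fell, with a median log2 fold change of -0.54, where expressed genes of chromosome 11 had a median of -0.38. On chromosome 17, 3 of 6 genes rose and 1 fell (median 0.11 against 0.37 for that chromosome's expressed genes). All 4 genes on chromosome 4 fell (median -0.44 against -0.15), and 3 of 4 on chromosome 5 rose (median 0.13 against 0.23). Chromosome 7 held 8 genes, of which 4 fell and none rose, with a median of -0.088 against 0.14. Single members on chromosomes 12, 13, 18 and X also fell, where the expressed genes had medians of 0.16, 0.14, 0.16 and 0.13. Of the 33 falls, 12 lay where the median of the neighbours was above 0, and 0 of the 8 rises lay where it was below 0. The same split was not counted over all tested genes, so it does not set the members apart.

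Each gene was also set against the expressed genes of its own 10 Mb bin. The gene's log2 fold change correlated with the median of those neighbours at r = 0.80 (rho 0.79) over the 54 genes, as a description with no test, since neighbours share libraries. Of the 54, 49 had a lower log2 fold change than their neighbours' median, which held for 52.4% of all genes with a position. The median difference from the neighbours was -0.22, with -0.24 in the small subunit and -0.17 in the large. The 5 genes above their neighbours were Rps2, Rpsa, Rps21, Rplp0 and Rpl7.

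With the neighbours' median entered as an offset, 48 of the 54 genes were called lower (34.2% of all genes) and 3 higher (30.5% of all genes). The 3 were Rps2 (0.34), Rpsa (0.32) and Rps21 (0.097), against log2 fold changes of 0.70, 0.45 and 0.16 without the offset. Rps10, Rps18, Rpl6 and Rpl9 changed from higher to lower, to -0.22, -0.16, -0.076 and -0.10. Rplp0 kept its direction at 0.059 (adjusted p = 0.0949). The order of the falls changed as well. Rps3 (-0.55, from -0.13) and Rpl10a (-0.50, from -0.13) had the largest under the offset, followed by Rpl28 (-0.42), Rps24 (-0.42) and Rpl22 (-0.42). Rpl38 had -0.32, Rpl27 -0.16, Rpl19 -0.17, Rpl23 -0.17, Rpl26 -0.17 and Rpl24, on chromosome 16, -0.17. The p-values under the offset treat each median as fixed and leave out its uncertainty, with 10 to 122 neighbours a gene. For Rps3 the median was 0.42 over 26 neighbours, where expressed genes of chromosome 7 had 0.14. What sets the level of whole chromosomes apart between the groups was not tested.

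**Figure D4:**
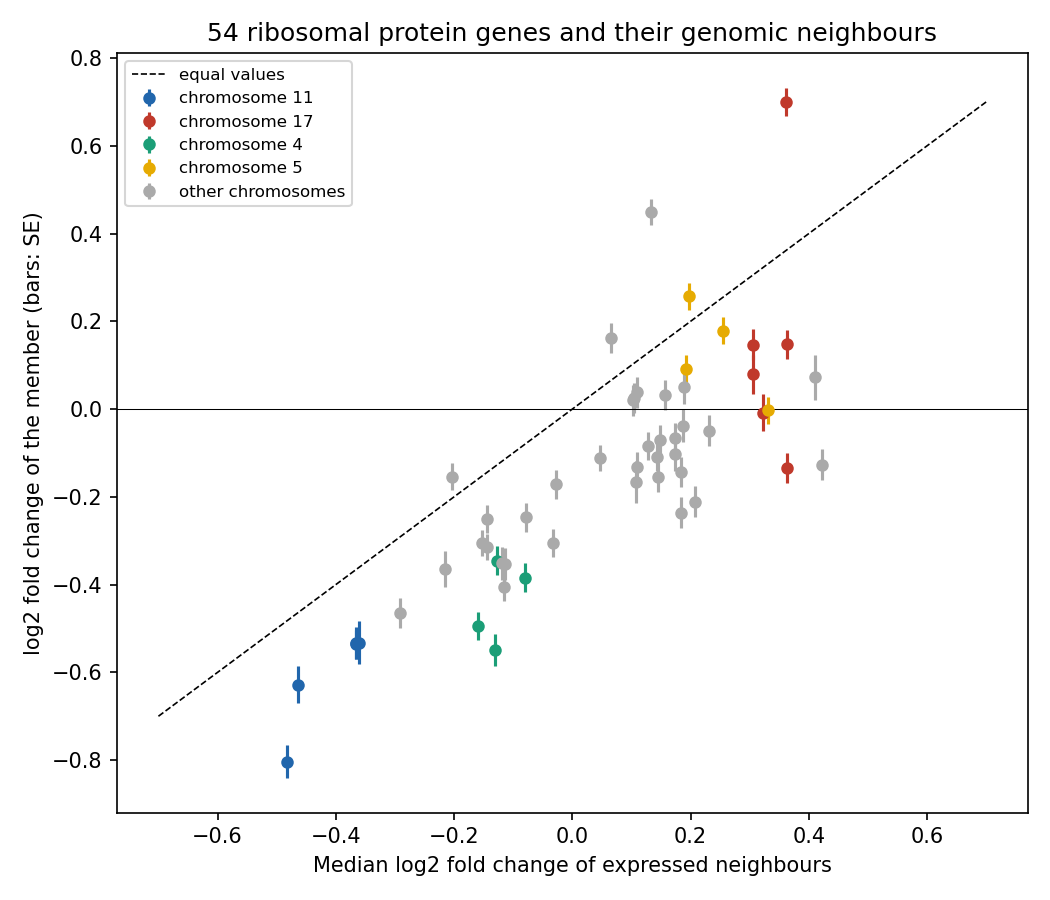
Log2 fold change of each ribosomal protein gene (y axis, bars show the SE) against the median log2 fold change of expressed genes in its 10 Mb bin (x axis), coloured by chromosome, with a dashed line at equal values. Of the 54 points 49 lie under the line, chromosome 11 genes sit at the lower left, and Rps2 is the highest point.

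The log2 fold changes were also set beside these sequence features. Genes with a pyrimidine run at the start (20) had a median of -0.086, with 4 higher and 10 lower, and genes without one (25) had -0.13, with 4 higher and 17 lower. Relative to their neighbours the medians were -0.22 and -0.21. Rps2 and Rpl38, the 2 ends of the range, both had a run. Genes with a CCGGAAG match (19) had a median of -0.084, with 6 higher and 10 lower, and genes without it (26) had -0.15, with 2 higher and 17 lower. With a match 31.6% were called higher and 52.6% lower, and without it 7.69 and 65.4%, beside the same 35 and 36%. Relative to neighbours the medians with and without a match were -0.21 and -0.23. The 6 risers with a match were Rps2, Rps10, Rps18, Rps21, Rpsa and Rpl6. Of these, Rps10, Rps18 and Rpl6 were called lower under the neighbours' offset. These counts are descriptions and carry no test.

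Ribosomal protein genes have many processed pseudogenes, so reads can be shared. Of each gene's transcript, 2.96% (Rps3) to 98.65% (Rps27) of the 50-base words also occurred in another annotated gene, with a median of 58.4%. Rps2 shared 79.03% of its words with 71 pseudogenes, the most of the set. The log2 fold change correlated with the shared percentage at r = 0.090 (rho 0.075) over the 54 genes. The rows of the count table named as pseudogenes of a member were small: Rpl9-ps6 held 1.15% of the Rpl9 total, Rps12-ps3 0.081% and Rpl27-ps3 0.058%. Adding them to their parents changed none of the 54 calls. Only the counts of Rpl9, Rps12 and Rpl27 changed by this, so the outcome for the other members was nearly fixed beforehand. Rows of copies under other names, such as Gm11361 for Rps18, were not added. Reads lost because they matched several places cannot be counted from this table, so levels of highly shared genes such as Rps2, Rps27 and Rps18 are uncertain.

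The 27 other core ribosomal protein genes had 14 falls (51.9%, beside 36% of all tested genes), 1 rise (3.70%, beside 35%) and 12 without a call, with a median of -0.10. The falls led by adjusted p were Rps27a (-0.56), a ubiquitin fusion, Rack1 (-0.52), a signalling scaffold on the small subunit, Rps3a1 (-0.39), Rpl35a (-0.52), Rpl31 (-0.38) and Rpl23a (-0.51). Rps27a, Rack1 and Rpl23a lie on chromosome 11, and under the neighbours' offset they had -0.14, -0.20 and -0.11. Rps3a1 had -0.18 and Rpl35a -0.26 under it. Rpl13a, part of an interferon-induced translation-silencing complex when released, was the single rise (log2 fold change 0.49, SE 0.049, edgeR adjusted p = 4.23e-10), with 37.4, 41.9 and 39.1 CPM in controls against 53.1, 56.8 and 56.9 CPM in ETV4 KO. Its value under the neighbours' offset was 0.31. All its CPM values lay under 124, the lowest control mean of the 54 members (Rpl26). Of the 50-base words of Rpl13a, 57.41% also occurred in the annotated gene Gm45713, which had 0 counts in every library. The level of Rpl13a is therefore uncertain as well. Without control replicate 2, or without ETV4 KO replicate 3, 2 of the 27 were higher. Over all 81 core genes the share of counts was 6.01% ± 0.176 in controls and 5.27% ± 0.152 in ETV4 KO (SD, n = 3, exact permutation p = 0.1).

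Paralogs of core proteins moved with mixed signs. Rpl22l1, the paralog of Rpl22, fell alongside it (log2 fold change -0.25, SE 0.043, edgeR adjusted p = 9.13e-06), as did Rps27l, the p53-responsive paralog of Rps27 (log2 fold change -0.25, SE 0.040, edgeR adjusted p = 1.89e-06). Rpl7l1 rose (log2 fold change 0.36, SE 0.036, edgeR adjusted p = 2.83e-10), while Rpl7 fell (-0.15). Under the neighbours' offset Rpl7l1 lost its call (0.045, adjusted p = 0.278) and Rpl7 turned to 0.050, so the contrast between them was not kept. Rpl22l1 and Rps27l had -0.13 and -0.11. Rps27rt, which shares most of its sequence with Rps27, had -0.43 and did not pass (adjusted p = 0.0969). Rpl3l, the striated muscle form of Rpl3, Rpl10l, a testis form of Rpl10, and Rpl39l had at most 2 counts in any library and were not tested.

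Of 19 translation factors and other mRNAs known to carry a TOP motif, 10 were lower (52.6%, beside 36% of all tested genes) and 5 higher (26.3%, beside 35%), with a median of -0.12. Npm1, a nucleolar chaperone, had -0.41, Eef2, the translocation factor, -0.32, and Eef1b2, the exchange factor of elongation factor EF1A, -0.25. On the other side were Vim (1.08), the intermediate filament protein of mesenchymal cells, the poly(A)-binding protein Pabpc1 (0.47) and Eif3l (0.17). Npm1 lies on chromosome 11 and lost its call under the neighbours' offset (-0.030, adjusted p = 0.39), as did Eif3l (0.068, adjusted p = 0.0531). Eef2 had -0.20 and Pabpc1 0.083 under it. Of 3 tested snoRNA host genes, Snhg12 (-0.60) and Snhg6 (-0.15) fell, the latter not without control replicate 2 (adjusted p = 0.0573).

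Of 40 genes for ribosome assembly, 19 were called higher (47.5%, beside 35% of all tested genes) and 14 lower (35.0%, beside 36%), with a median of 0.038. Bysl (0.55), Wdr43 (0.48) and Gnl3 (0.38), which act in processing and export of the subunits, were among the rises. Tsr1 (-0.43), Sbds (-0.38), the Shwachman-Diamond syndrome gene, and Noc2l (-0.29) were among the falls. Tsr1, on chromosome 11, and Wdr43, on chromosome 17, lost their calls under the neighbours' offset (-0.029, adjusted p = 0.522, and 0.063, adjusted p = 0.111). Bysl had 0.23, Gnl3 0.24, Sbds -0.64 and Noc2l -0.16 under it. For RNA polymerase I, which transcribes ribosomal RNA, and the MYC family, 6 of 17 tested genes were higher (35.3%, beside 35%) and 4 lower (23.5%, beside 36%), with a median of -0.032. Myc itself stood at 152, 147 and 153 CPM in controls against 209, 201 and 208 CPM in ETV4 KO (log2 fold change 0.45, SE 0.034, edgeR adjusted p = 6.92e-13), and Polr1c (0.31) and Polr1d (0.24) rose. Taf1a (-0.26), the initiation factor Rrn3 (-0.16) and the catalytic subunit Polr1a (-0.12) fell. Under the neighbours' offset Myc had 0.15 and Taf1a -0.16. Calls were lost under it for Polr1c (-0.038, adjusted p = 0.417), Polr1d (0.020, adjusted p = 0.675), Rrn3 (0.064, adjusted p = 0.141) and Polr1a (-0.024, adjusted p = 0.643). Polr1a also lost its call without control replicate 1 (adjusted p = 0.066), control replicate 2 (adjusted p = 0.0806) or ETV4 KO replicate 2 (adjusted p = 0.0817), and 2 genes of the list were lower without control replicate 2.

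The list for mTORC1 and the control of TOP mRNAs had 6 rises (33.3%, beside 35% of all tested genes) and 5 falls (27.8%, beside 36%) among 18 genes, with a median of 0.040. Deptor, an inhibitor of mTOR, had the widest rise, with 21.2, 20.5 and 21.2 CPM in controls against 59.9, 55.9 and 55.3 CPM in ETV4 KO (log2 fold change 1.45, SE 0.052, edgeR adjusted p = 1.88e-20). Ddit4, a stress-induced inhibitor of mTORC1, had the widest fall, with 305, 327 and 323 CPM in controls against 115, 141 and 118 CPM in ETV4 KO (log2 fold change -1.36, SE 0.048, edgeR adjusted p = 1.20e-20). These 2 inhibitors moved in opposite directions, and the groups were apart in both. Rheb (0.39), the activator of mTORC1, and Akt1s1 (0.48), another inhibitor, rose. Rps6kb1 (-0.46), the S6 kinase, and Larp1 (-0.32), which binds TOP mRNAs, fell, and both lie on chromosome 11. Under the neighbours' offset Larp1 lost its call (0.041, adjusted p = 0.262), and Rps6kb1 had -0.15, Rheb 0.11 and Akt1s1 0.30.

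**Figure D5:**
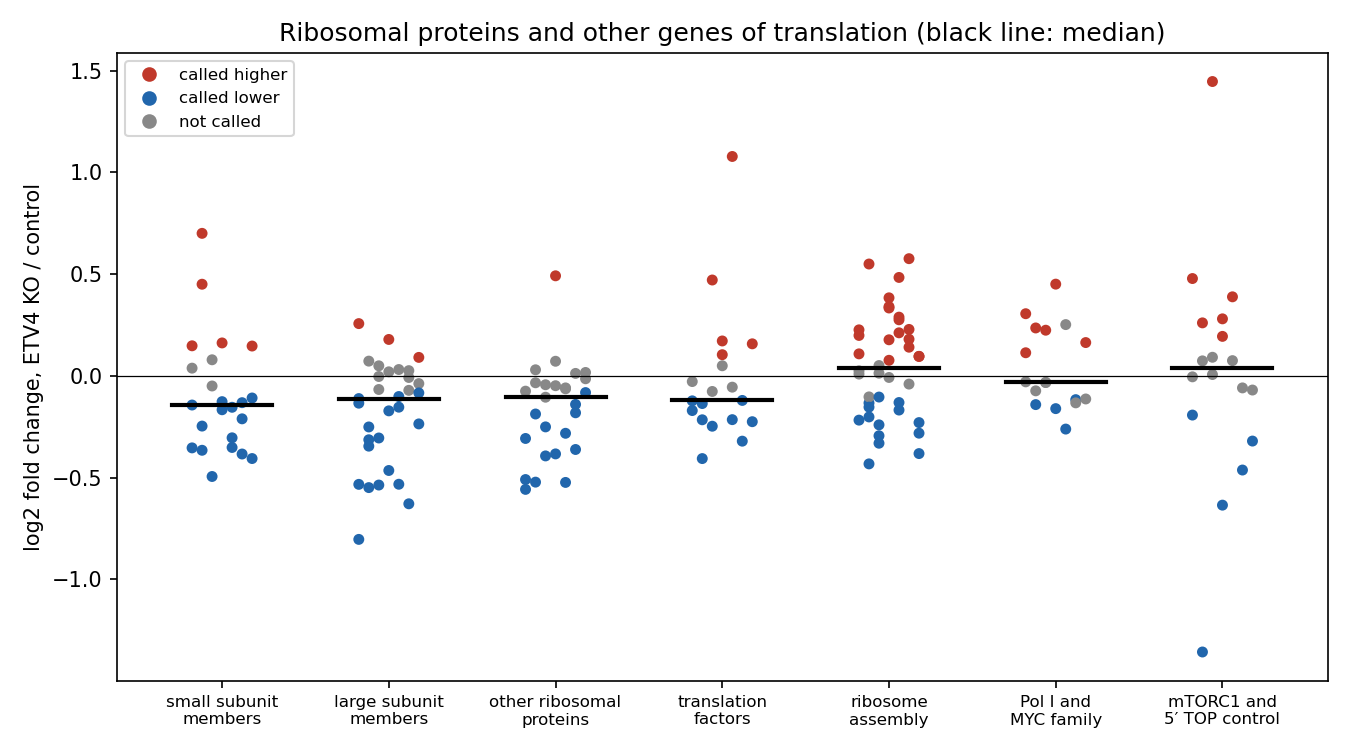
Log2 fold change of ETV4 KO over control (y axis) for each gene of 7 lists (x axis), coloured by call, with the median of each list as a black line. The ribosomal protein lists sit mostly below 0 (medians -0.14, -0.11 and -0.10), while ribosome assembly (0.038) and mTORC1 genes (0.040) spread to both sides.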

How the data were processed

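PolyA RNA of 6 libraries was prepared with a stranded mRNA kit, per the labels' protocols. The deposited values are raw counts, 1 row a gene symbol. Per the submitters' processing notes the tools were STAR 2.7.9a, featureCounts, FastQC 0.11.9 and R 4.1.1, with the builds mm10 and hg38 named without a role. The treatment of reads with several matches is not given in the sources.

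Genes were kept by filterByExpr (at least 10 counts, 15 in total), scaled by TMM and tested with the quasi-likelihood test of edgeR 4.0.16 (R 4.3.3) over 12076 genes, with Benjamini-Hochberg adjustment and a threshold of 0.05. CPM values are TMM-scaled, except those of the cell type markers, which are scaled by library size alone. Shares were compared with an exact 2-sided permutation test over 20 regroupings. Expressed neighbours are other genes with log2 CPM above 3 in the same 10 Mb bin, or on the chromosome where a bin held under 10. As an offset, their median was entered as a fixed value without its own error. On simulated data for this comparison (11889 genes), the test recovered 56% of genes changed 1.2-fold and 81.6% of those changed 1.5-fold.

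Members and lists were chosen with earlier results of these data known. Genes given individually were the 8 largest rises and falls with groups apart, the highest and lowest 2 per coding kb, the 3 smallest differences and 8 genes with known roles; for other lists, up to 3 called genes with the smallest adjusted p in each direction, and all tested paralogs and p53-axis genes. Rps14, Rps13, Rps3, Rps24, Rps25, Rps7, Rps28, Rplp2, Rpl7, Rpl10a, Rpl28, Rpl35 and Rpl37 were named after their values were seen. Alternatives were other scalings (RLE, upper quartile, library size, ribosomal genes left out), other filters, DESeq2 1.42.0, limma-voom (limma 3.58.1), a replicate block, stricter thresholds, summed pseudogene rows, the neighbours' median as an offset, and each library left out.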

Additional observations from a re-analysis of the deposited data

How the results depend on the processing

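Of the 54 genes, 43 kept their call and direction in 16 refits, which leave aside the neighbours' median as an offset and the stricter thresholds, and 33 in all 17. Leaving out each library gave 7 to 10 members higher and 31 to 36 lower. Large subunit genes higher ranged from 2 to 5, other ribosomal proteins higher from 1 to 2, and RNA polymerase I and MYC genes lower from 2 to 4. The difference in share ranged from -0.529 to -0.406 percentage points. Against a fold change of 1.2 (glmTreat), 2 members were higher and 15 lower (small subunit 2 and 6, large subunit 0 and 9), and 7 other ribosomal proteins were lower. For the other lists glmTreat left 2 of 19 translation factors higher and 2 lower, and 6 of 40 assembly genes higher and 2 lower. It left 1 of 17 RNA polymerase I and MYC genes higher and 0 lower, and 3 of 18 mTORC1 genes higher. Of all tested genes, 17.4% passed higher and 19.6% lower. Fewer genes pass because the test asks for a larger change. With the neighbours' median as an offset, 3 members were higher (small subunit 3, large subunit 0), 29 large subunit genes were lower, and the small subunit median was -0.24. Under that offset 2 of 27 other ribosomal proteins were higher and 24 lower, and 2 of 19 translation factors were higher. So were 3 of 17 RNA polymerase I and MYC genes, while 7 of 40 assembly genes were lower. Of all genes, 30.5% were higher and 34.2% lower under the offset. It reversed Rps10 (-0.22), Rps18 (-0.16), Rps28 (-0.23), Rplp2 (-0.14), Rpl6 (-0.076), Rpl7 (0.050), Rpl8 (-0.079), Rpl9 (-0.10), Rpl14 (-0.13), Rpl30 (-0.34), Rpl34 (-0.083), Polr1c (-0.038), Rrn3 (0.064), Larp1 (0.041) and Cdkn1a (-0.26), each by the size of its neighbours' median. RNA polymerase I and MYC genes lower numbered 8 with library size only and 2 at an adjusted p under 0.01, and other ribosomal proteins higher numbered 2 with no low-count filter; the cause was not tested.

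Whether replicate numbers pair the samples is not settled. Deviations of same-numbered libraries correlated weakly, at 0.071, 0.0705 and 0.0186 over all tested genes. Not every library correlated best with its own number, as ETV4 KO replicate 3 had 0.0199 with control replicate 1. Among the members, replicate 1 was low and replicate 2 high in both groups for most genes. With the replicate block, 10 members were higher and 35 lower, 50 of 54 kept their call and 4 gained one, and 2 other ribosomal proteins were higher. Groups of 3 limit the exact permutation test to p = 0.1. Fold changes near 1.2 were recovered in 56% of simulated cases, drawn from genes of all levels. That share does not describe the recovery of the abundant members.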
